A study of Homo sapiens with 12 samples.

Results

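The genes described are ACLY, ACSS2, ACACA, MID1IP1, FASN, SCD, ELOVL6, ELOVL5, FADS1 and FADS2, 10 human genes that make, lengthen and desaturate fatty acids. They were chosen by symbol, and all 10 were found among the 36459 gene symbols of the deposited gene table. All 10 passed the filter on low counts, which left 14209 genes. They were followed in HEK293, an established human embryonic kidney cell line, under oleic acid with ferric ammonium citrate (FAC, a soluble iron salt that the study used to induce ferroptosis), FAC alone, oleic acid alone, and vehicle. Each of the 4 groups had 3 libraries, made by poly-A selection from total RNA. The study asked how oleic acid changes the response to FAC. The sources used here give neither doses nor treatment times, and do not say whether numbered replicates were separate cultures, so p-values measure the spread between these libraries, which may be technical.

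Cells build palmitate from acetyl-CoA in the cytosol. ATP-citrate lyase (ACLY) and acetyl-CoA synthetase (ACSS2) supply the acetyl-CoA, acetyl-CoA carboxylase (ACACA) turns it into malonyl-CoA, and fatty acid synthase (FASN) joins the units, after which elongases and desaturases give stearate, oleate and the polyunsaturated acids. Many of these genes are targets of SREBP-1, while the related factor SREBP-2 mainly drives the genes of sterol synthesis. INSIG1 holds both precursors in the endoplasmic reticulum and is itself a target. Oleic acid is the product of stearoyl-CoA desaturase (SCD), and polyunsaturated acids, whose synthesis runs through FADS1 and FADS2, are the lipids most prone to the peroxidation that marks ferroptosis.

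Sequence upstream of 4 transcription start sites is shown because MID1IP1, SCD and ELOVL6 had the largest FAC differences among the 10 genes averaged over both arms, and INSIG1 is the SREBP target they are read against. The stretches come from RefSeq promoter windows on GRCh38.p14 and leave out bases that GENCODE 29 annotates as exon. They lie at chrX:38801209-38801431 on the plus strand for MID1IP1, chr10:100346983-100347123 on the plus strand for SCD, chr4:110198677-110198841 on the minus strand for ELOVL6, and chr7:155297628-155297775 on the plus strand for INSIG1. Capitals mark matches, on either strand, to a sterol regulatory element (SRE, TCACNCCAC), an E-box (CACGTG) or an NF-Y box (CCAAT), and no capital stretches overlap.
MID1IP1: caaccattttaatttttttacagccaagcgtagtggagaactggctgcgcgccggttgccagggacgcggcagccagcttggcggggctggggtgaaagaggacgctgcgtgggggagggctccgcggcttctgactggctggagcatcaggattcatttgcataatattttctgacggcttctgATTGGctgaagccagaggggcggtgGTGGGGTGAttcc
SCD: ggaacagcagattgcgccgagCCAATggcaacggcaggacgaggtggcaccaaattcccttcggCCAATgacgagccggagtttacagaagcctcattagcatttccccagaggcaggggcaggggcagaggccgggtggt
ELOVL6: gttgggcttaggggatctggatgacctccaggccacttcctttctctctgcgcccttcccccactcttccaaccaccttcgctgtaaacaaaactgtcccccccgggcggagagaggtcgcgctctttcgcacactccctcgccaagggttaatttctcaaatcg
INSIG1: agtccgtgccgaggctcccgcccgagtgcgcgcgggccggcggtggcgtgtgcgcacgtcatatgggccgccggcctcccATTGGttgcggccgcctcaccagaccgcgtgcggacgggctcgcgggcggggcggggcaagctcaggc
Distances are counted from the RefSeq start, which for these 4 genes lies inside the gene as GENCODE 29 annotates it. MID1IP1 held an SRE match 40 bases before its start and an NF-Y box at 65 bases. SCD had NF-Y boxes at 229 and 186 bases before its start and no SRE match. The ELOVL6 window of 250 bases held none of these 3 motifs. INSIG1 had an NF-Y box at 170 bases, and an E-box at 55 bases that lies outside the printed stretch.

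RefSeq windows were found for 9 of the 10 genes, 14 windows in all, and none was found for FASN. The MID1IP1 window was the 1 of these 14 with an SRE match, against 0 of 20 windows of the sterol enzymes and 0.883% of all 35116 windows. An NF-Y box was found in 8 of the 14 windows, against 15 of 20 windows of the sterol enzymes and 32.0% of all windows. By gene that was 6 of 9, against 13 of the 15 sterol enzymes with a window. Windows of a gene can overlap, and the ACLY windows share their NF-Y boxes. The GC-box (GGGCGG, not capitalised above, and free to overlap the others) was found in 11 of the 14 windows, against 18 of 20 and 42.6%. The E-box was found in 1 of the 14 windows, against 2 of 20 and 6.35%. These matches describe letters in the window and were not tested as binding sites. The exact SRE letters were also not matched in the INSIG1 window or in those of the sterol enzymes. A missing match therefore does not show that a gene lacks such a site.

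Library totals ran from 14098216 to 18717397 estimated counts, and 3 counts, the most that a count of 0 allows, came to between 0.158 and 0.224 CPM (counts divided by each library's size, itself adjusted by the trimmed mean of M values). Such floors cover counting error only. A pair of libraries stood apart on the first principal component, the third of the oleic acid + FAC group at 62.0 and the third of the oleic acid group at 40.8, against -24.7 to 9.69 for the other 10 libraries. In both, genes with long transcripts were low, with correlations of deviation with length of -0.39 and -0.52 across genes, against -0.23 to 0.36 elsewhere. Mitochondrial genes took 12.1% and 7.09% of their counts, against 3.33 to 7.5% elsewhere. They are called the 2 outlying libraries here, and values without them are given beside the results that rest on them. All 8 HEK293 markers were above the floor in every group, with summed levels of 1283 to 1899 CPM in oleic acid + FAC libraries, 982 to 1382 CPM in FAC libraries, 953 to 1345 CPM in oleic acid libraries and 915 to 1252 CPM in vehicle libraries. Of the 8, LHX1 (named after its values were seen) rose with FAC in the average, by 0.52 on the log2 scale, and its part in other results was not tested. The other markers were set against the floor by their mean count over all 12 libraries, so single libraries could lie below it. Of 5 hepatocyte markers 0 were above the floor, with APOB and SERPINA1 at 0 throughout. Of 5 adipocyte markers PLIN1 was the 1 above it, at 0 to 0.948 CPM. Of 5 fibroblast markers 2 were above it, led by COL1A1 at 9.41 to 17.9 CPM. Of 4 endothelial markers 2 were, led by ESAM at up to 1.32 CPM, and of 4 blood markers HBA1, at 0 to 1.63 CPM, with HBB at 0. Summed fibroblast levels overlapped between all groups, at 11.6 to 18.3 CPM in oleic acid + FAC, 13.1 to 18.3 CPM in FAC, 9.86 to 17.5 CPM in oleic acid and 13.6 to 17.9 CPM in vehicle libraries.

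Levels can be compared between the 10 genes only per transcript length, in TPM (transcripts scaled by length to a common total) averaged over all 12 libraries. ACLY was the most abundant at 287 TPM, above 96.9% of the tested genes, followed by SCD at 153 TPM and FASN at 151 TPM. ELOVL5 had 72.7 TPM, FADS1 40.8 TPM, MID1IP1 36.8 TPM and ACACA 35.8 TPM. The lowest levels were those of FADS2 at 23.6 TPM, ELOVL6 at 19.8 TPM and ACSS2 at 11.8 TPM. SCD and FASN were within their spread of each other, as were FADS1, MID1IP1 and ACACA. The fewest counts of any of these genes in a library were 261, for ACSS2, so none was near the floor.

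FAC was tested against vehicle, with oleic acid in both arms (oleic acid + FAC against oleic acid), and averaged over both arms. In the average, MID1IP1 and ELOVL6 rose, and the other 8 genes did not pass the test, an adjusted p under 0.05 in the quasi-likelihood test of edgeR with Benjamini-Hochberg adjustment over all genes. That is 2 of 10 genes, beside 8.76% of all genes in either direction and 3.27% upward. In each arm alone, 0 of 10 passed with edgeR, beside 1.19% of all genes against vehicle and 2.21% with oleic acid in both arms. At an unadjusted p under 0.05, 3 of 10 passed in each arm and in the average (MID1IP1, SCD and ELOVL6), beside 12.1%, 16.1% and 23.5% of all genes. DESeq2 called 1 of 10 in each arm, MID1IP1, beside 3.65% and 5.97%, and 3 in the average, with SCD added, beside 12.5%. Limma-voom called 0 in each arm, beside 1.21% and 1.98%, and 2 in the average, beside 8.89%. In these bulk libraries, fewer cells with a transcript and less of it per cell cannot be told apart.

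MID1IP1, on chromosome X (chrX:38801432-38806537, plus strand), encodes a small protein that binds acetyl-CoA carboxylase and promotes its polymerisation and activity. It had 64.4, 59.5 and 63.1 CPM in FAC libraries, against 48.9, 43.6 and 41.9 CPM in vehicle libraries. With oleic acid it had 53.4, 60.7 and 62.1 CPM in oleic acid + FAC libraries, against 41.7, 41.1 and 49.6 CPM in oleic acid libraries. All 6 libraries with FAC lay above all 6 without it, which held for 2.80% of genes. The average FAC effect was 0.44 on the log2 scale (SE 0.0799, edgeR adjusted p = 0.00457), a fold of 1.36 with a 95% interval of 1.21 to 1.53. The effects in the arms were 0.48 against vehicle (adjusted p = 0.0630) and 0.41 with oleic acid in both (adjusted p = 0.0847).

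The MID1IP1 call held when any 1 of the 12 libraries was left out and under the other 8 alternatives, with an average effect between 0.35 and 0.49. Without the 2 outlying libraries it was also called in each arm, at 0.49 against vehicle (adjusted p = 0.0105) and 0.47 with oleic acid in both (adjusted p = 0.0497). An antisense gene, MID1IP1-AS1, shares 151 exon bases with it and has no entry of its own in the gene table. Whether counting used strand is not given in the sources used here, so reads of the pair cannot be told apart.

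**Figure D1:**
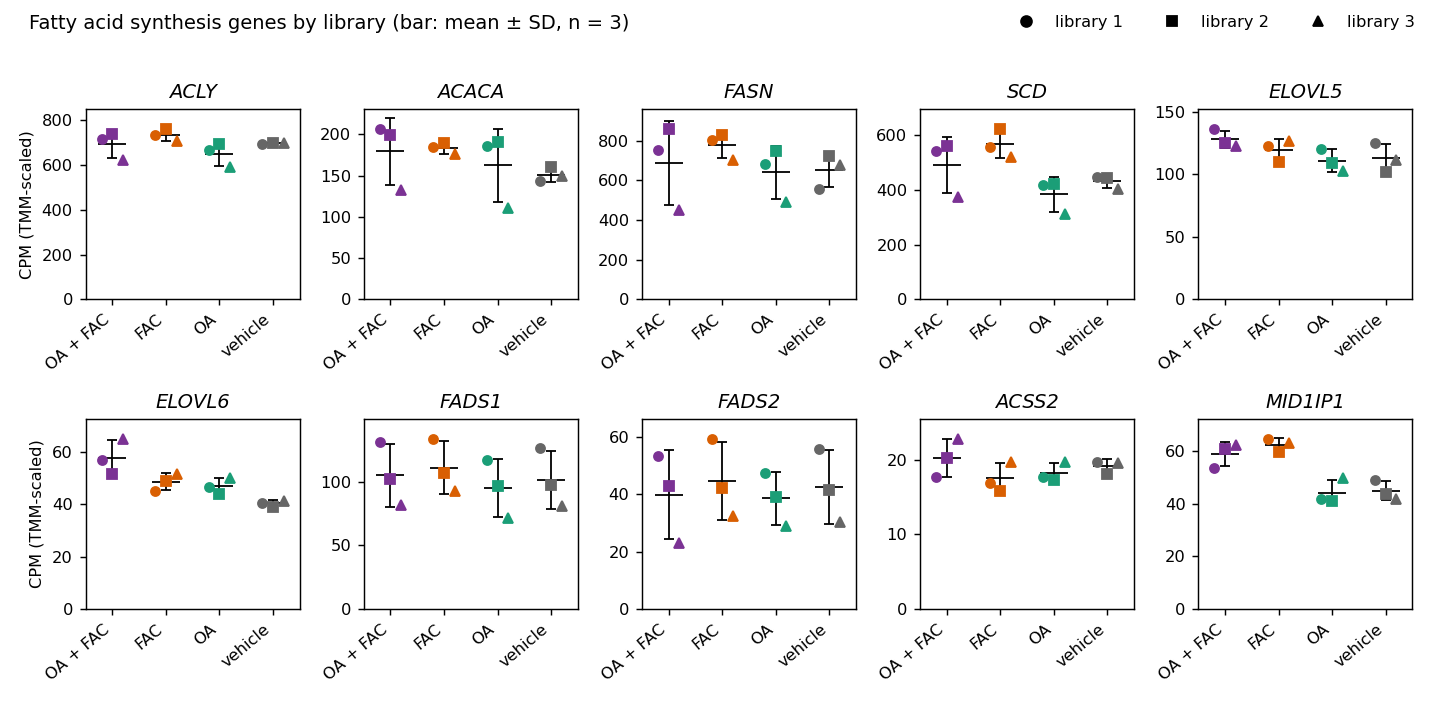
CPM of each of the 10 genes in every library, with 1 panel per gene and the groups in the order oleic acid + FAC, FAC, oleic acid (OA in the labels) and vehicle; points are libraries and bars are group means with SD. In the MID1IP1 panel the FAC libraries sit between 53.4 and 64.4 CPM and the others between 41.1 and 49.6 CPM, while the 2 outlying libraries are the lowest of their groups for ACACA, FASN and SCD.

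ELOVL6, the elongase that turns palmitate into stearate, was the other gene called in the average. On chr4:110045846-110199199 (minus strand), it had 45.3, 49.1 and 51.6 CPM in FAC libraries, against 40.7, 39.0 and 41.5 CPM in vehicle libraries. Oleic acid + FAC libraries had 56.8, 51.7 and 65.0 CPM, against 46.7, 44.0 and 50.3 CPM in oleic acid libraries. FAC libraries were above their counterparts without overlap in both arms. The average effect was 0.28 (SE 0.0785, edgeR adjusted p = 0.0399), a fold of 1.22 with a 95% interval of 1.08 to 1.37. The arms gave 0.27 against vehicle (adjusted p = 0.333) and 0.30 with oleic acid in both (adjusted p = 0.203).

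This call was marginal. It was lost when any 1 library was left out except the second of the oleic acid + FAC group or the third of the oleic acid group, with adjusted p from 0.0254 to 0.108 over the 12 omissions and effects from 0.24 to 0.32. It was also lost with library totals as the scaling (adjusted p = 0.165), with no filter (0.0907) and with the length trend removed (0.0595). ELOVL6 was high, not low, in the 2 outlying libraries, and without them the effect was 0.27 (adjusted p = 0.0216).

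SCD, the desaturase that makes oleate from stearate, had the largest effect that did not pass. On chr10:100347124-100364834 (plus strand), it had 558, 621 and 521 CPM in FAC libraries, against 446, 444 and 403 CPM in vehicle libraries, without overlap. With oleic acid it had 541, 559.8 and 374 CPM in oleic acid + FAC libraries, against 419, 422 and 311 CPM in oleic acid libraries. The outlying library of each group was the lowest, so these groups overlapped. Between libraries of the same number, oleic acid + FAC exceeded oleic acid by 0.37, 0.41 and 0.27 on the log2 scale. The average effect was 0.38 (SE 0.116, 95% interval 0.12 to 0.63, edgeR adjusted p = 0.0635), a fold of 1.30.

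SCD crossed the threshold in the average without the outlying oleic acid + FAC library, at 0.46 (adjusted p = 0.0125), and without both outlying libraries, at 0.40 (adjusted p = 0.00360). It did so as well with DESeq2 (adjusted p = 0.0123) and with the length trend removed (adjusted p = 0.00246). Without both it was called against vehicle too, at 0.41 (adjusted p = 0.0275). The 10 genes then had 2 calls against vehicle, beside 4.67% of all genes, 1 with oleic acid in both arms, beside 2.47%, and 3 in the average, beside 14.9%.

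The trend with transcript length was fitted to each library's deviation from its group mean, so length differences between groups stayed in. It was then taken as fixed, so the uncertainty of the trend itself was not counted. With this trend removed, SCD and MID1IP1 were called in both arms. That was 2 of 10 genes, beside 3.40% of all genes against vehicle and 8.37% with oleic acid in both. In the average ACACA joined them, at 0.22 (adjusted p = 0.0296), while ELOVL6 dropped below the threshold, which left 3 of 10 beside 18.8%. Adding the replicate number as a block to this removal gave 3 of 10 in each arm, beside 8.40% and 18.0%, and 5 of 10 in the average, beside 28.7%. The block alone gave 1 against vehicle, beside 3.03%, 0 with oleic acid in both arms, beside 5.21%, and 3 in the average, beside 15.6%.

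The genes that supply acetyl-CoA did not pass in any of these comparisons. ACLY, which cleaves exported citrate (chr17:41866908-41930542, minus strand), had 732, 759 and 707 CPM in FAC libraries, against 694, 698 and 696 CPM in vehicle libraries. These groups did not overlap, yet the effect was 0.07 (95% interval -0.17 to 0.32). With oleic acid in both arms it was 0.09, with 716, 739.9 and 622 CPM in oleic acid + FAC libraries, against 669, 695 and 589.5 CPM in oleic acid libraries, which overlapped. ACSS2, which makes acetyl-CoA from acetate (chr20:34872146-34927962, plus strand), averaged 17.5 ± 2.01 CPM in FAC libraries and 19.2 ± 0.910 CPM in vehicle libraries (SD, n = 3 each). It averaged 20.3 ± 2.52 CPM in oleic acid + FAC libraries and 18.3 ± 1.28 CPM in oleic acid libraries (SD, n = 3 each). The ACSS2 groups overlapped in both arms, and its effects of -0.13 and 0.15 were opposite in sign, with an average of 0.01 (95% interval -0.19 to 0.21).

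ACACA, the carboxylase that makes malonyl-CoA (chr17:37084988-37406818, minus strand), had 184, 189.9 and 176 CPM in FAC libraries, against 143, 160.3 and 149.9 CPM in vehicle libraries. All FAC libraries were higher, and the effect was 0.28 (95% interval -0.15 to 0.71, edgeR adjusted p = 0.675). With oleic acid, ACACA had 206, 199 and 133 CPM in oleic acid + FAC libraries, against 185, 190.3 and 111 CPM in oleic acid libraries. The 2 outlying libraries were below every vehicle library, and the effect of 0.14 (95% interval -0.28 to 0.57) could not be separated from that spread. ACACA is the longest transcript of the 10, at 8300 bases when weighted by abundance.

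FASN, which builds palmitate (chr17:82078333-82098332, minus strand), had 806, 831 and 702 CPM in FAC libraries, against 556, 721 and 677 CPM in vehicle libraries. It had 754, 857 and 450.0 CPM in oleic acid + FAC libraries, against 684, 748 and 489 CPM in oleic acid libraries. Both pairs overlapped, and the average effect was 0.18 (95% interval -0.16 to 0.52, edgeR adjusted p = 0.524). FASN, with a weighted length of 8078 bases, was again lowest in the 2 outlying libraries.

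ELOVL5, the elongase of polyunsaturated acids (chr6:53267398-53349179, minus strand), had 136, 125 and 123 CPM in oleic acid + FAC libraries, against 121, 109 and 102 CPM in oleic acid libraries, without overlap. Against vehicle the groups overlapped, with 123, 110.1 and 126 CPM in FAC libraries and 125, 101 and 112 CPM in vehicle libraries. The effects were 0.21 (edgeR adjusted p = 0.390) with oleic acid in both arms and 0.09 (adjusted p = 0.868) against vehicle.

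FADS1 and FADS2, the desaturases of polyunsaturated acid synthesis, followed the replicate number in every group. FADS1 (chr11:61799625-61829318, minus strand) had 133, 107 and 92.7 CPM in FAC libraries, against 126, 97.1 and 81.2 CPM in vehicle libraries. It had 131, 102 and 81.7 CPM in oleic acid + FAC libraries, against 117, 96.8 and 71.7 CPM in oleic acid libraries. In all 4 groups the first library was the highest and the third the lowest. Between libraries of the same number FADS1 was higher with FAC by 0.08, 0.14 and 0.19 on the log2 scale against vehicle. With oleic acid in both it was higher by 0.17, 0.07 and 0.19. ACLY, ACACA, SCD, ELOVL6 and MID1IP1 were likewise higher in all 6 pairs, and the share of all genes with this pattern was not counted. The replicate numbers paired vehicle libraries with the others only in part. With the replicate block the average effect of FADS1 was 0.14 (SE 0.0601, edgeR unadjusted p = 0.0410, adjusted p = 0.141), which did not pass.

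FADS2 (chr11:61792980-61867354, plus strand) had the same order in every group. It had 59.2, 42.1 and 32.4 CPM in FAC libraries, against 55.9, 41.5 and 30.2 CPM in vehicle libraries, and 53.5, 42.8 and 23.0 CPM in oleic acid + FAC libraries, against 47.5, 39.1 and 29.1 CPM in oleic acid libraries. The average FAC effect was 0.13 for FADS1 (95% interval -0.21 to 0.47) and 0.06 for FADS2 (95% interval -0.42 to 0.53), both with groups that overlapped. FADS1 and FADS2 lie on opposite strands and share 490 exon bases, and FADS2 shares 49 with FEN1, so their counts are not fully independent.

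Counted over the list, 5 of the 10 genes had every FAC library above every vehicle library (ACLY, ACACA, SCD, ELOVL6 and MID1IP1), beside 10.0% of all genes. With oleic acid in both arms this held for 3 (ELOVL5, ELOVL6 and MID1IP1), beside 7.85%. Estimated effects were positive for 9 of 10 genes against vehicle, with ACSS2 the exception, and for 10 of 10 with oleic acid in both arms and in the average. With library totals as the scaling, which moved the median of all genes by -0.14 with oleic acid in both arms, ACLY, FASN, FADS2 and ACSS2 turned negative there, and ACLY, FADS2 and ACSS2 did so in the average. The median effect of the 10 genes was 0.19 against vehicle, 0.15 with oleic acid in both arms and 0.16 in the average. Over all tested genes the medians were 0.0058, 0.0025 and 0.0045. Medians of like size were seen in other lists, so the shift was not particular to these genes. The 8 HEK293 markers had 0.18, 0.25 and 0.22, and 6 genes for citrate export and NADPH supply had 0.13, 0.19 and 0.15. The lists for LXR, ChREBP and control of acetyl-CoA carboxylase, described below, had medians below 0 in each comparison. The median of the 10 genes with oleic acid in both arms was 0.31 without the third oleic acid + FAC library, 0.26 without the first oleic acid library and 0.089 without the third oleic acid library, where 0.089 was the lowest and 0.31 the highest of 12 omissions. In the average the range was 0.10 (without the third oleic acid library) to 0.22, and against vehicle 0.15 to 0.26. Library totals as the scaling gave 0.15, 0.011 and 0.077, and omission of both outlying libraries 0.20, 0.17 and 0.17.

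**Figure D2:**
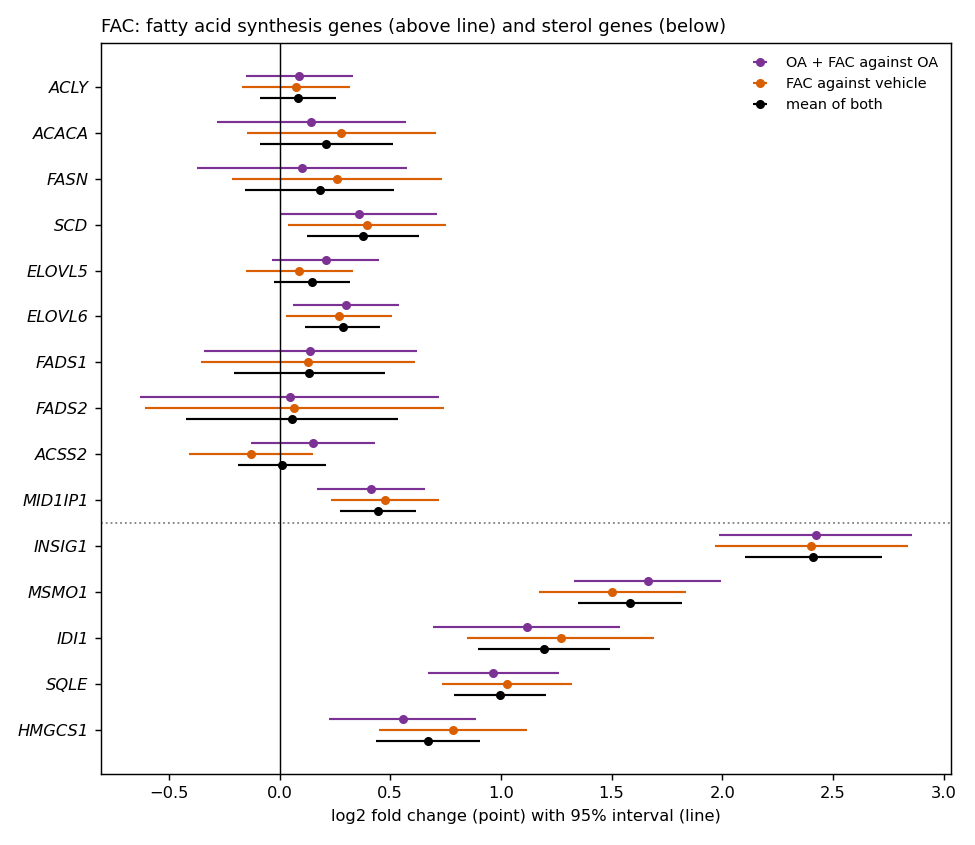
FAC effect on the log2 scale, with 95% intervals, for the 10 genes and for named sterol genes, against vehicle, with oleic acid in both arms and averaged. The fatty acid genes lie between -0.13 and 0.48 in the 2 arms. Of the sterol genes, HMGCS1 lies at 0.78 against vehicle and at 0.56 (not called by edgeR) with oleic acid in both arms. MSMO1 and INSIG1 lie between 1.504 and 2.42.

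The sterol genes, mainly targets of SREBP-2, give a comparison. Of 20 enzymes from acetyl-CoA to cholesterol, 5 rose against vehicle, beside 0.457% of all genes, 4 with oleic acid in both arms, beside 0.760%, and 8 in the average, beside 3.27%. In all 3 comparisons 0 fell with edgeR, DESeq2 or limma-voom. Their largest effect was that of MSMO1, a C4-demethylating enzyme late in the route, at 1.504 against vehicle, 1.66 with oleic acid in both arms and 1.58 in the average. The largest of the 10 fatty acid genes, MID1IP1, had 0.48, 0.41 and 0.44. SQLE, the squalene epoxidase, rose by 1.03 against vehicle (adjusted p = 0.00401) and by 0.97 with oleic acid in both arms (adjusted p = 0.00505).

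The lists differed less in their medians than in their extremes. The median effect of the 20 sterol enzymes was 0.27 in each arm and 0.24 in the average, and that of the 10 fatty acid genes 0.19, 0.15 and 0.16. The order of the lists was not stable within single arms. The fatty acid median was the higher with oleic acid in both arms without the third oleic acid + FAC library (0.31 beside 0.27) or the first (0.26 beside 0.24) or second (0.213 beside 0.209) oleic acid library, and against vehicle without the third FAC library (0.25 beside 0.24). Against vehicle the effect was positive for 17 of 20 sterol enzymes and 9 of 10 fatty acid genes. The difference between the lists was not tested, and both had members with no clear change.

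INSIG1 had 359, 428 and 467 CPM in FAC libraries, against 85.0, 59.7 and 92.6 CPM in vehicle libraries. It had 356, 439.6 and 488 CPM in oleic acid + FAC libraries, against 77.5, 64.6 and 97.6 CPM in oleic acid libraries. The groups were far apart in both arms, with effects of 2.40 (edgeR adjusted p = 1.79e-04) and 2.42 (adjusted p = 1.65e-04). Neither gene for the SREBP precursors was called. SREBF1 had an average effect of -0.17 (95% interval -0.54 to 0.20) and SREBF2 of 0.10 (95% interval -0.24 to 0.44).

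Library by library, the lists moved apart in the outlying oleic acid + FAC library. Relative to the vehicle mean, the median of the 20 sterol enzymes was 0.37, 0.34 and 0.39 on the log2 scale in oleic acid + FAC libraries and 0.28, 0.27 and 0.25 in FAC libraries. The median of the 10 fatty acid genes was 0.30, 0.25 and -0.17 in oleic acid + FAC libraries and 0.30, 0.20 and 0.14 in FAC libraries. In oleic acid libraries the fatty acid genes had 0.09, -0.03 and -0.32, and the sterol enzymes 0.02, -0.02 and 0.12. The fatty acid genes were thus low in the 2 outlying libraries, with or without FAC, and the sterol enzymes were not.

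The summed level of the 10 genes was 2667 ± 154 CPM in FAC libraries and 2291 ± 63.4 CPM in vehicle libraries, and 2459.9 ± 438 CPM in oleic acid + FAC libraries and 2191 ± 319.6 CPM in oleic acid libraries (SD, n = 3 each). For the 20 sterol enzymes it was 2636 ± 174 CPM in FAC libraries and 1837.5 ± 156 CPM in vehicle libraries, and 2626 ± 139 CPM in oleic acid + FAC libraries and 1882 ± 89.8 CPM in oleic acid libraries (SD, n = 3 each). The spread of the fatty acid sum in the oleic acid groups came mainly from the 2 outlying libraries, at 1957 CPM with FAC and 1824 CPM without.

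**Figure D3:**
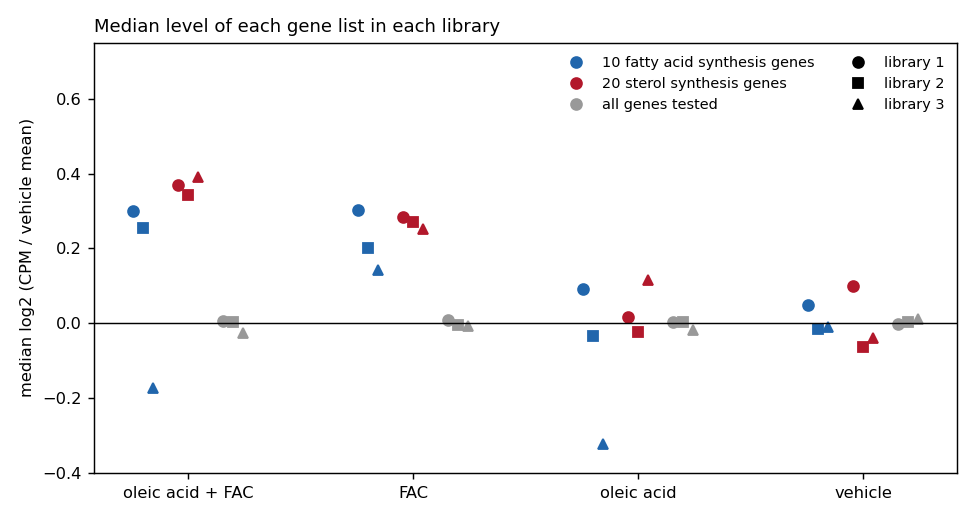
Median log2 CPM relative to the vehicle mean for the 10 fatty acid genes and for the 20 sterol synthesis enzymes in each of the 12 libraries, by group. The sterol medians are between 0.25 and 0.39 in all 6 libraries with FAC, and the fatty acid medians run from -0.17 to 0.30 in the same libraries.

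None of the 10 genes passed the edgeR test for oleic acid. Against vehicle 0 of 10 were called by edgeR, DESeq2 or limma-voom, beside 0% of all genes with edgeR, and 0 passed at an unadjusted p under 0.05, beside 0.830%. Under FAC (oleic acid + FAC against FAC) 0 of 10 were called by edgeR, DESeq2 or limma-voom, beside 0%, and 1, ELOVL6, passed unadjusted, beside 4.05%. Averaged over FAC, the same counts were 0, beside 0%, and 1, again ELOVL6, beside 4.34%. DESeq2 called 0.00457% of all genes under FAC and 0.0137% in the average. With both the replicate block and removal of the length trend within groups, 2 of 10 passed in the average, beside 9.92%. These were ELOVL6 at 0.23 (adjusted p = 0.0478) and SCD at -0.20 (adjusted p = 0.0351), and length differences between groups stayed in. The median effect of the 10 genes was -0.05 against vehicle, -0.08 under FAC and -0.07 in the average, beside -7.5e-04, 0.0025 and -4.0e-04 over all genes. These directions turned when single libraries were left out. Without the 2 outlying libraries the medians were 0.024, 0.083 and 0.064. Leaving out 1 library gave -0.094 to 0.051 against vehicle, positive without the third oleic acid or the first vehicle library, and -0.13 to 0.094 under FAC, positive without the third oleic acid + FAC or the first FAC library. In the average the range was -0.083 to 5.4e-04.

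ELOVL6 and SCD had the largest average estimates. ELOVL6 was higher in every oleic acid library than in every vehicle library, which held for 1.93% of genes, with an effect of 0.22 (95% interval -0.02 to 0.46). Under FAC all oleic acid + FAC libraries were above all FAC libraries, which held for 4.61% of genes, with an effect of 0.25 (95% interval 0.01 to 0.49), although the nearest libraries had 51.7 and 51.6 CPM. The average was 0.23 (95% interval 0.06 to 0.40, edgeR unadjusted p = 0.0109, adjusted p = 0.688). For SCD, whose product is the acid supplied, the effect was -0.17 against vehicle (95% interval -0.52 to 0.19), -0.21 under FAC (95% interval -0.56 to 0.15) and -0.19 in the average (95% interval -0.44 to 0.07, adjusted p = 0.688). A decrease of SCD of that size, or none, was within the interval.

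The intervals of the other genes bound what could be seen. For MID1IP1 the average oleic acid effect was -0.05 (95% interval -0.23 to 0.12), and for ACLY -0.09 (95% interval -0.26 to 0.08). FASN had -0.10 (95% interval -0.44 to 0.23). FADS1 had -0.09 (95% interval -0.43 to 0.25) and FADS2 -0.15 (95% interval -0.63 to 0.33), the widest of the 10.

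**Figure D4:**
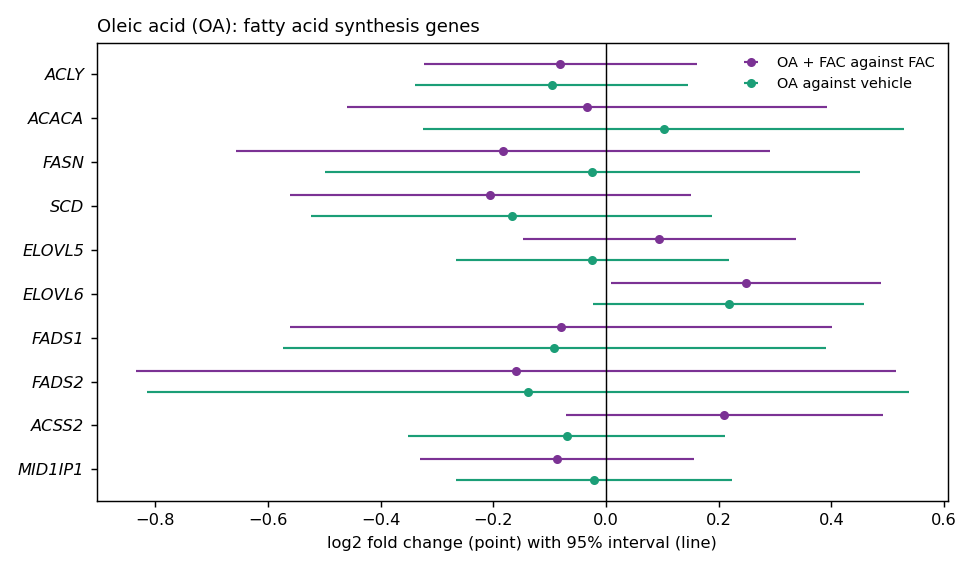
Oleic acid effect on the log2 scale, with 95% intervals, for the 10 genes under FAC (OA + FAC against FAC) and without it (OA against vehicle). Of these 20 intervals, that of ELOVL6 under FAC, from 0.01 to 0.49, is the 1 that excludes 0, and SCD lies at -0.21 under FAC and -0.17 without it.

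The interaction term asks whether oleic acid altered the FAC effect. For the 10 genes it ran from -0.16 for FASN to 0.28 for ACSS2, and 0 were called by edgeR, DESeq2 or limma-voom, beside 0% of all genes, with 0 at an unadjusted p under 0.05, beside 0.816%. It was -0.07 for MID1IP1 (95% interval -0.41 to 0.28), 0.03 for ELOVL6 (95% interval -0.31 to 0.37) and -0.04 for SCD (95% interval -0.54 to 0.46). Interactions smaller than these intervals were not detectable with 3 libraries a group.

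Transcript estimates were more scattered than gene totals. Of 126 transcripts of these genes in the transcript table, 38 passed the filter, and edgeR called 0 of them against vehicle, with oleic acid in both arms or in the average, beside 0.00777%, 0.0117% and 0.299% of all transcripts. At an unadjusted p under 0.05 the counts were 2, 5 and 7, beside 4.47%, 6.14% and 8.37%. DESeq2 called 0 against vehicle, beside 0.783% of all transcripts, FASN-204 with oleic acid in both arms, beside 1.02%, and ELOVL6-201 in the average, beside 1.88%. In edgeR, FASN-204 had an effect of 10.6 with oleic acid in both arms (SE 3.43, adjusted p = 0.700). It is a minor transcript, since FASN-201 held 93.6% of the gene's counts. The main MID1IP1 transcript, MID1IP1-202, held 53.9 ± 7.68% of the gene's counts in FAC libraries and 44.1 ± 7.88% in vehicle libraries, and 47.7 ± 5.47% in oleic acid + FAC libraries and 51.0 ± 9.34% in oleic acid libraries (SD, n = 3 each). Its average FAC effect was 0.54 (edgeR adjusted p = 0.247). ELOVL6-201 had 0.31 (adjusted p = 0.192), near the 0.28 of the gene. SCD had 1 transcript, SCD-201, with all counts. ACACA transcripts with a match in GENCODE 29 held 64.5% of its counts, so its isoforms are covered in part.

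Neighbouring genes of the pathway were mostly not called under FAC in the average, where 8.76% of all genes were called and 23.5% passed unadjusted. Of 6 genes for citrate export and NADPH supply, 0 were called by edgeR, DESeq2 or limma-voom and 2 passed unadjusted, with estimates from 0.13 to 0.23. Of 15 tested other elongases, desaturases and partner enzymes, edgeR and limma-voom called 0, with 1 unadjusted, and DESeq2 called 1. That gene, named after its values were seen, was SCD5, a second stearoyl-CoA desaturase, at 0.24 (adjusted p = 0.104) in edgeR. Of 9 genes for mitochondrial fatty acid synthesis, 0 were called by the 3 tools and 0 passed unadjusted. Of 6 targets of the oxysterol receptor LXR, 0 were called by the 3 tools and 1 passed unadjusted. Of 5 tested genes for the glucose-responsive factor ChREBP, related factors and their targets, edgeR called 1, beside 5.48% of all genes called downward. It was TXNIP (named after its values were seen), an inhibitor of glucose uptake, which fell by 0.80 (adjusted p = 0.0220). DESeq2 called 2 downward, TXNIP and MLXIP (also named after its values were seen), beside 12.5% of all genes in either direction. MLXIP encodes a factor related to ChREBP, not ChREBP itself. Limma-voom called 1 downward, beside 8.89%.

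Of 9 tested genes for the control of acetyl-CoA carboxylase 1 fell in the average, beside 5.48% of all genes. It was PRKAA2, which encodes a catalytic subunit of the AMP-activated kinase that phosphorylates and inhibits the carboxylases. It had 29.6, 39.96 and 31.6 CPM in FAC libraries, against 52.0, 53.9 and 61.8 CPM in vehicle libraries. Oleic acid + FAC libraries had 26.8, 27.6 and 24.5 CPM, against 62.5, 56.8 and 33.2 CPM in oleic acid libraries. FAC libraries were lower without overlap in both arms, as were 12.4% of all genes against vehicle and 10.3% with oleic acid in both, and PRKAA2 had an average effect of -0.84 (edgeR adjusted p = 0.00300), with -0.73 against vehicle (adjusted p = 0.107) and -0.95 with oleic acid in both arms (adjusted p = 0.0289). ACACB, the mitochondrial carboxylase paralog, had -0.30 in the average (95% interval -0.82 to 0.23) and was not called.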

How the data were processed

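Gene-level and transcript-level estimated counts from 12 poly-A RNA libraries were deposited by the authors, who per the submitters' processing notes used bcl2fastq 2.19, kallisto 0.46.1, sleuth 0.30.0 and GRCh38.p12 (hg38). The deposited estimated counts came as whole numbers and needed no rounding. Library totals of 14098216 to 18717397 limit precision for low genes, and within groups every pair of libraries differed beyond counting noise (chi-square per degree of freedom 8.14 to 122). Groups follow the treatment in the labels.

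Here, genes were filtered with filterByExpr, scaled by TMM and fitted in 1 model of 4 group means over 12 libraries with edgeR 4.0.16 in R 4.3.3. Two-sided quasi-likelihood tests were adjusted by Benjamini-Hochberg over 14209 genes or 51464 transcripts. The procedure was also run on simulated counts that held no length trend and no replicate pairing. That run does not show how the procedure handles these. Differences are log2 fold changes with 95% intervals. Medians per library used log2(CPM + 0.5). Gene coordinates, exons and transcript lengths come from GENCODE 29 on GRCh38, in which 89.9% of the transcripts were found.

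Alternatives were DESeq2 1.42.0, limma-voom (limma 3.58.1), library totals as the scaling, no filter and a replicate block. Others were removal of the trend with transcript length, only the groups compared, and omission of libraries. That trend was fitted to each library's deviation from its group mean, so length differences between groups stayed in. The replicate numbers of the labels paired oleic acid + FAC with oleic acid, oleic acid + FAC with FAC, and FAC with oleic acid. Deviations of same-numbered libraries correlated by 0.459, 0.296 and 0.612 in the first of these, by 0.226, 0.221 and 0.340 in the second, and by 0.165, 0.263 and 0.332 in the third. With the block, oleic acid + FAC against oleic acid gave 740 calls among all genes in place of 314, and still 0 among the 10 genes.

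The 10 genes and the other lists were chosen with earlier results of these data known. Named genes were the 10, SREBF1, SREBF2, INSIG1, HMGCS1, SQLE and ACACB, plus up to 4 called genes of each other list with the largest FAC change in either arm. Values of some genes named by this rule are not reported here.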

Additional observations from a re-analysis of the deposited data

How the results depend on the processing

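Of the 10 genes, the count called by FAC against vehicle was 0, and became 1 with DESeq2, 1 with the replicate block, 1 with only the groups compared, 2 with the length trend removed, 3 with that and the block, and 2 without both outlying libraries. With oleic acid in both arms it was 0, and became 1 with DESeq2, 2 with the length trend removed, 3 with that and the block, and 1 without both outlying libraries. In the average it was 2, and became 1 with library totals only, 1 with no filter, and 5 with the length trend removed together with the block. Leaving out 1 library gave 0 to 1 in each arm, with the 1 arising without the outlying oleic acid library, and 1 to 2 in the average. The average oleic acid effect had 0 calls, and 2 with the length trend removed and the block, SCD at -0.20 (adjusted p = 0.0351) and ELOVL6 at 0.23 (adjusted p = 0.0478). DESeq2 on transcripts gave 1 call with oleic acid in both arms and 1 in the average, in place of 0.

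Vehicle libraries paired with the others in part, with 4 of 9 same-number correlations over 0.1 and own number best in the same 4 (with FAC 0.243, 0.3005 and -0.0102), short of the rule that every pair exceed 0.1. The block gave 431 calls among all genes in place of 169 against vehicle, with MID1IP1 the member called (adjusted p = 0.0392), and 2211 in place of 1244 in the average, with SCD added. The other counts over all genes that moved by over 1.5 times against vehicle were 505 with DESeq2, 483 and 1194 with the length trend removed without and with the block, 351 with only the groups compared and 672 without both outlying libraries. With oleic acid in both arms they were 775, 1190, 2562 and 19 (only the groups compared), and in the average 2666, 4074 and 2143 (without both outlying libraries). With the length trend removed, oleic acid + FAC against FAC had 71 calls and 1115 with the block, and the oleic acid average 234 and 1409, in place of 0.

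Of 1466 values of named genes under an alternative, 1318 kept direction and side of the threshold and 50 reversed, 36 of these on leaving out 1 library, and 0 of the reversed values were called. With library totals only, oleic acid + FAC against oleic acid gave ACLY -0.047, FASN -0.022, FADS2 -0.068, ACSS2 -2.4e-04 and SREBF2 -0.11, the average gave ACLY -0.0079, FADS2 -0.020 and ACSS2 -0.089, and the ELOVL6 interaction was -0.072. With oleic acid in both arms, limma-voom gave FADS2 -0.0082 and SREBF2 -0.011, and SREBF2 was -0.0031 with the block and -0.0044 with the length trend removed and the block. The ELOVL6 interaction was -0.016 without both outlying libraries. Leaving out 1 library gave, against vehicle, -0.027 to 0.31 for FADS1, -0.19 to 0.31 for FADS2 and -0.34 to 0.11 for ACACB. With oleic acid in both arms it gave -0.068 to 0.32 for ACACA, -0.089 to 0.33 for FASN, -0.053 to 0.31 for FADS1, -0.23 to 0.32 for FADS2, -0.26 to 0.033 for SREBF1 and -0.19 to 0.24 for SREBF2. In the average it gave -0.079 to 0.19 for FADS2, -0.037 to 0.055 for ACSS2 and -0.0015 to 0.21 for SREBF2, and for the interaction -0.17 to 0.13 for SCD and -0.057 to 0.10 for ELOVL6. The cause of these changes was not tested. Depth limits low genes most, and the 10 genes had 261 counts or more in every library.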
